A study of Homo sapiens with 8 samples.

Results

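The ERK pathway feedback inhibitors are genes whose products restrain the pathway, and many of them are switched on by ERK signalling itself. Here they comprised 9 genes of 20136 protein-coding genes in the annotation. These were the phosphatase genes DUSP4, DUSP5 and DUSP6, the Sprouty genes SPRY1, SPRY2 and SPRY4, and the Sprouty-related genes SPRED1, SPRED2 and SPRED3. They were chosen by name from what is known of their products and not by any measured value. Earlier results of these data were, however, known when they were chosen. They were examined by ChIP-seq in the established human cell line PC9, which derives from a lung adenocarcinoma. One group of cells received the vehicle DMSO, and the other received GSK126, a small molecule inhibitor of the methyltransferase EZH2, at 1 µM for 5 days. Each of the marks H3K27me3 and H3K4me3 was measured in 2 libraries with DMSO and 2 with GSK126, which gave 8 libraries in all, and chromatin from the D. melanogaster ovarian cell line OSS had been added to each reaction as a spike-in. All 4 groups come from a single cell line. The study calls its replicates biological, but the labels do not say how their cultures were kept apart, so the spread between them may be technical in part.

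EGFR and other receptor tyrosine kinases activate RAS, RAF, MEK and ERK in turn, and PC9 cells are known for an activating EGFR mutation. DUSP6 is a cytoplasmic phosphatase that removes the activating phosphates from ERK, whereas DUSP5 and DUSP4 act in the nucleus. Sprouty proteins act between the receptor and RAF, and SPRED proteins recruit neurofibromin, which turns RAS off. H3K4me3 marks the promoters of active genes, and H3K27me3, which the EZH2-containing complex PRC2 deposits, marks silent ones.

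The deposited data are lists of islands, which are stretches of the genome where the SICER algorithm found more sequencing tags than a random background gives, in windows of 200 bp. In the standard lists, both libraries of a replicate had been reduced to equal numbers of human tags. In the spike-in lists, tags had been removed according to the D. melanogaster tag counts. An H3K27me3 library therefore had 2 lists, while DMSO libraries of H3K4me3 had 1 list each that served both comparisons, which gave 14 lists. The spike-in and standard comparisons share their libraries and are not independent of each other. Each gene was examined over its body and the 2 kb upstream of it, and the promoter island of a gene was the widest H3K4me3 island within 1 kb of any of its annotated transcript starts.

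Depth differed between lists. The mean number of tags per window, as read from the island scores, ranged from 0.382 to 2.33 for H3K27me3, and the spike-in lists with GSK126 held 23.1% and 19.6% of the density with DMSO in replicates 1 and 2. For H3K4me3 it was 1.77 with DMSO in replicate 1 but 0.302 in replicate 2, and the promoter island of every member was narrower in replicate 2 than in replicate 1. The spike-in lists of H3K4me3 with GSK126 held 83.6% and 86.9% of the DMSO density. Values were therefore compared within a replicate. The smallest p-value that the exact sign-flip test allows with 2 pairs is 0.5, so none is given. Of 5 epithelial marker genes, all 5 carried a promoter H3K4me3 island in both DMSO lists, as did NKX2-1 and SFTPC of 4 lung epithelial markers. That of SFTPC measured 8.4 kb in replicate 1 but only 0.4 kb in replicate 2. H3K27me3 islands covered 6.58 kb and 8.77 kb of SFTPC in the DMSO spike-in lists. The surfactant gene SFTPB and NAPSA carried none, and neither did the leukocyte markers PTPRC and CD3E, whereas the endothelial marker CDH5 did.

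Sequence upstream of the start of the canonical transcript is shown for DUSP5, the only member with a CArG box in it. It is also shown for a gene of each family, with SPRED3 taken because its ratio of observed to expected CpG stood apart. In the 300 bp before its start (GRCh37, chr10:112257365-112257664, plus strand), DUSP5 held 2 CArG boxes side by side, the element that serum response factor binds, which are given in capitals.
DUSP5: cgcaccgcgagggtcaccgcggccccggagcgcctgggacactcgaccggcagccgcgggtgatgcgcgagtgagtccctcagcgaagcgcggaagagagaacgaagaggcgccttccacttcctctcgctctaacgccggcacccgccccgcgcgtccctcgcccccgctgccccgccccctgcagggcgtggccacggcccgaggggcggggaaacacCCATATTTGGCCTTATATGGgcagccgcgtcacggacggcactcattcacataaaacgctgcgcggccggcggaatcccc
Of all protein-coding genes, 1.4% held a CArG box on either strand of this window, and none of the other members did. The remaining sequences have their CpG dinucleotides in capitals and show DUSP6 (chr12:89746279-89746578, minus strand), SPRY4 (chr5:141704587-141704886, minus strand) and SPRED3 (chr19:38879037-38879336, plus strand).
DUSP6: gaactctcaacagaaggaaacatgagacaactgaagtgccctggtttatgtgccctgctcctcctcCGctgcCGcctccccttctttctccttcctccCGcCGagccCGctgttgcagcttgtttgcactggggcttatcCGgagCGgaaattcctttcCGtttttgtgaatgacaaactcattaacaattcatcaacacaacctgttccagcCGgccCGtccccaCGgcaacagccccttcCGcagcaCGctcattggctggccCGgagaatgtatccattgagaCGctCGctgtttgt
SPRY4: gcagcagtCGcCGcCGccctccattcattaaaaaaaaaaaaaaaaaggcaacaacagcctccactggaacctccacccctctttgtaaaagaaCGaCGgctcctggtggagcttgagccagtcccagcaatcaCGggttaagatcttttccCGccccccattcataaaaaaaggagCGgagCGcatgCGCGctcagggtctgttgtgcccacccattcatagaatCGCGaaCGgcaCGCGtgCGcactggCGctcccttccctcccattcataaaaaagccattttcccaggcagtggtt
SPRED3: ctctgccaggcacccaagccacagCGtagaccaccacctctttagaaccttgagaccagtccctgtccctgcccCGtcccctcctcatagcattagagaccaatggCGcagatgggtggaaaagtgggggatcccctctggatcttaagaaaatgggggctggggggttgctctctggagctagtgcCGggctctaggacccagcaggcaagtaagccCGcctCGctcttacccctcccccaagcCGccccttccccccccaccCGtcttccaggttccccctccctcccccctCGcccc
SPRED3 held 9 CpG dinucleotides in this window, compared to 10 in SPRY1, 16 in DUSP6, 18 in SPRY4 and 41 in DUSP5. The ratio of observed to expected CpG was 0.319 for SPRED3 and between 0.705 and 1.095 for the other 8 members. The ETS core motif CCGGAA was present in DUSP4 and SPRY2 (21% of all genes, both strands). The AP-1 motif TGANTCA (5.77% of all genes), the CRE motif TGACGTCA (2.56%) and the TATA motif TATAAA (11.2%) were found in no member.

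What the members shared was a high number of CpG dinucleotides over a longer stretch. Within 2 kb on either side of the start, the median number of CpG dinucleotides was 254 in the members and 130 in all genes. It was 148 in genes whose promoter carried an H3K4me3 island in DMSO replicate 1 and 183 in the 10% of promoters with the widest such islands. DUSP4 held the most, with 349, and SPRY4 the fewest, with 195. Each member held more CpG dinucleotides in this stretch than at least 81.6% of all genes. SPRED3 held 209, but its ratio of observed to expected CpG in this stretch was 0.509, the lowest of the members. The median ratio was 0.766 in the members and 0.512 in all genes.

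All 9 members carried an H3K4me3 island at the promoter in both DMSO lists (65.0% of all genes did), and these islands were wide. Over members, the median width was 9.2 kb and 6.4 kb in replicates 1 and 2, and over all genes with such an island it was 4.6 kb and 2.4 kb. By family, the median was 11 kb and 7.6 kb for the phosphatase genes, 7.6 kb and 4.6 kb for the Sprouty genes, and 6.4 kb and 4.2 kb for the SPRED genes. The order of the families was thus the same in both replicates.

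In GRCh37, DUSP4 lies on chromosome 8 (29190581 to 29208201, minus strand), DUSP5 on chromosome 10 (112257665 to 112271291, plus strand) and DUSP6 on chromosome 12 (89741012 to 89746278, minus strand). DUSP4 had the widest promoter island of the members, at 14.6 kb in replicate 1 and 9.2 kb in replicate 2, and 98.6% and 99.5% of all promoter islands were narrower. The islands of DUSP5 measured 11 kb and 6.6 kb, and those of DUSP6 measured 10.4 kb and 7.6 kb. At DUSP6 the island of replicate 1 covered the entire gene body and the 2 kb upstream, since the gene itself spans 5.27 kb. The 3 phosphatase genes thus had islands wider than at least 95.8% of promoters in either replicate.

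SPRY1 lies on chromosome 4 (124317950 to 124324915, plus strand), SPRY2 on chromosome 13 (80910111 to 80915261, minus strand) and SPRY4 on chromosome 5 (141689992 to 141706020, minus strand). Of these, SPRY4 had the widest island, at 9.2 kb and 6.4 kb. SPRY1 measured 7.6 kb and 4.2 kb, and SPRY2 measured 7.2 kb and 4.6 kb, so that their order changed between replicates. The island of SPRY1 lay almost entirely downstream of the start, reaching 949 bp upstream and 6650 bp downstream in replicate 1, and 149 bp and 4050 bp in replicate 2.

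SPRED1 lies on chromosome 15 (38545037 to 38649450, plus strand), SPRED2 on chromosome 2 (65537985 to 65659771, minus strand) and SPRED3 on chromosome 19 (38879061 to 38890227, plus strand). SPRED2 measured 9.8 kb and 7.8 kb, SPRED1 6.4 kb and 4.2 kb, and SPRED3 5.6 kb and 2.6 kb. SPRED2 was the only member whose island reached farther upstream than downstream in both replicates, with 6629 bp against 3170 bp in replicate 1 and 5429 bp against 2370 bp in replicate 2. SPRED3 had the narrowest island of the members in both replicates. Of all promoter islands, 70.4% were narrower in replicate 1 and 50.9% in replicate 2, so that it was near the middle in replicate 2 only. Its neighbour GGN, which is transcribed in the opposite direction, overlaps the 2 kb upstream of SPRED3, so that the island cannot be assigned to SPRED3 alone. Genes of long non-coding RNAs overlap the body or the upstream 2 kb of DUSP4, DUSP5, DUSP6, SPRY4, SPRED2 and SPRED3. Whether the islands of these members belong to the coding gene alone was not tested.

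**Figure D1:**
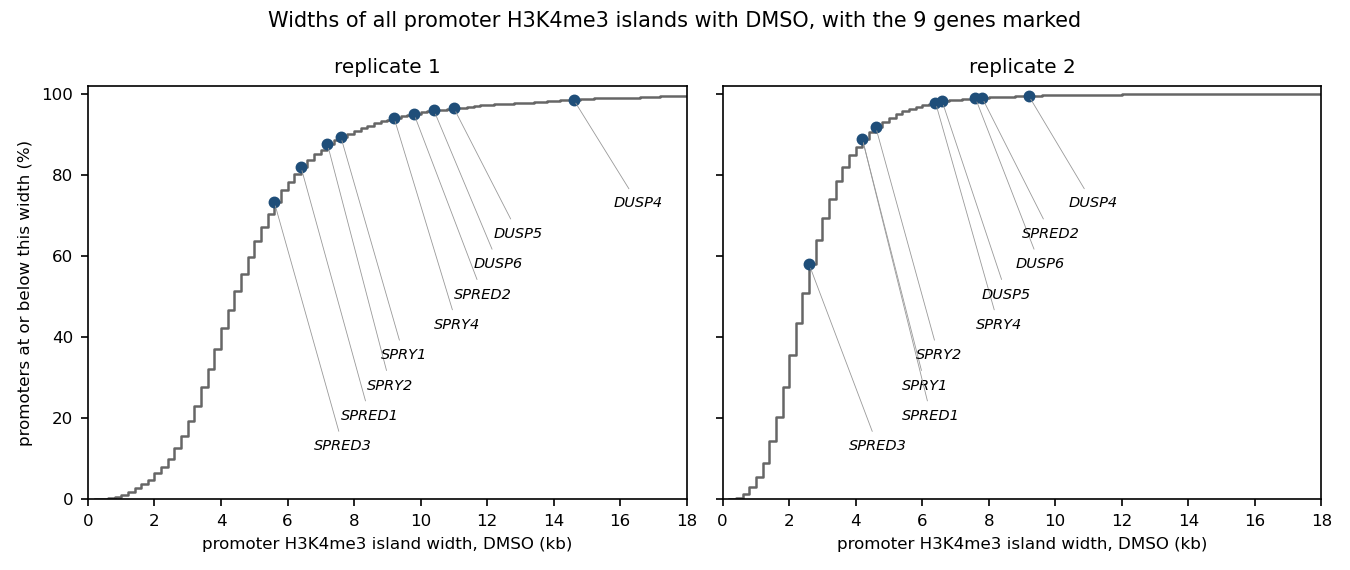
Cumulative share of all promoter H3K4me3 islands (%, vertical axis) by width in kb (horizontal axis) with DMSO in replicates 1 and 2, with the 9 genes as points on the curve. DUSP4 lies farthest right at 14.6 kb and 9.2 kb, and SPRED3 lies lowest on the curve at 5.6 kb and 2.6 kb.

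Promoter islands above 7.8 kb in replicate 1 or above 4.4 kb in replicate 2 belonged to the widest 10% in that replicate. Of the members, 5 passed in replicate 1 (9.85% of all promoters, since widths come in steps of 200 bp) and 6 in replicate 2 (9.44%). DUSP4, DUSP5, DUSP6, SPRY4 and SPRED2 passed in both replicates (5.41%), and SPRY2 passed in replicate 2 alone.

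Other genes of the pathway were taken from lists chosen by function. The 17 genes of the core cascade from EGFR to ERK had median widths of 4.4 kb and 2.8 kb in replicates 1 and 2, close to those of all genes, and all 17 carried a promoter island in both. The 12 transcription factors and other genes that ERK induces, such as EGR1, ETV5 and EPHA4, had medians of 7.5 kb and 4.3 kb. Of these 12 genes, 5 were among the widest 10% in replicate 1 and 6 in replicate 2. Among 7 other MAPK phosphatase genes the medians were 6.2 kb and 3.7 kb, with 0 and 1 genes among the widest 10%. Among 10 other negative regulators of RAS and receptor signalling, such as CBL, the medians were 4.6 kb and 2.4 kb. The differences between lists were not tested.

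H3K27me3 islands were nearly absent from the members. No H3K27me3 island of any of the 8 lists touched DUSP4, DUSP5, DUSP6, SPRY1, SPRY2, SPRY4, SPRED1 or SPRED2 or the 2 kb upstream of them. Such a lack was common, since it was found for 67.1% of all genes and for 77.4% of genes with a promoter H3K4me3 island in both DMSO lists. The lack of islands extended to the surroundings. For the same 8 members, no island lay within 50 kb in any list, which held for 37.4% of genes with promoter H3K4me3. An island list shows where signal passed the threshold, and a weaker signal would not be listed.

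The least distance to an H3K27me3 island in any list was 3501 kb for DUSP6 and 1664 kb for SPRY2. The nearest islands to DUSP4 were at 1013 kb to 1626 kb, and those to SPRY1 at 722 kb to 1443 kb. DUSP5, SPRY4, SPRED1 and SPRED2 were closer, with least distances of 106, 104, 207 and 120 kb, respectively. The 8 genes thus sat in stretches of different length without islands.

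**Figure D2:**
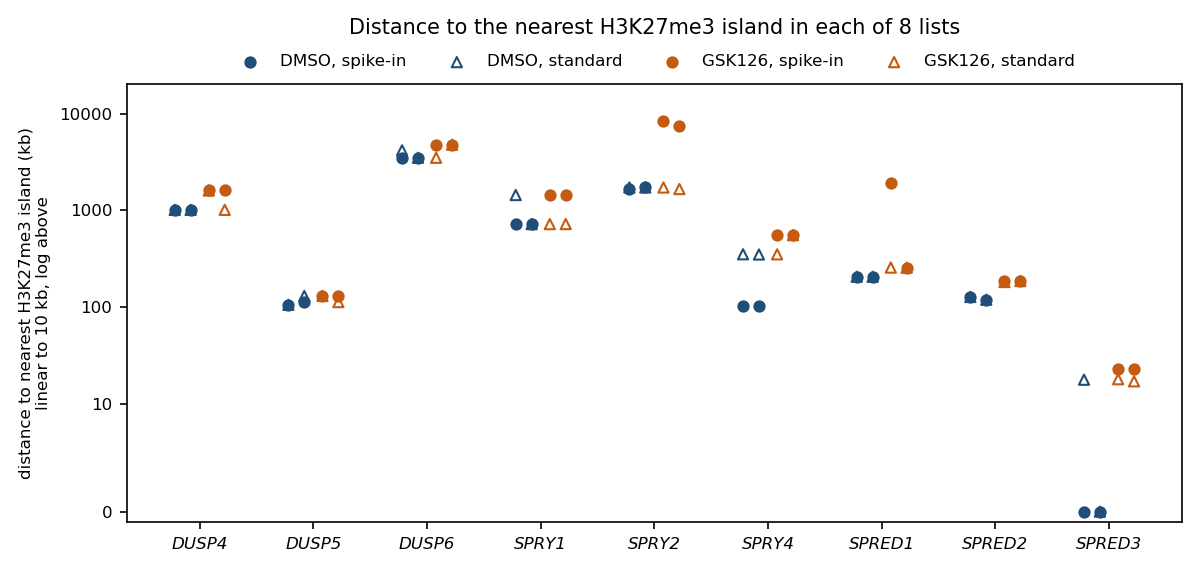
Distance in kb from each gene, with its 2 kb upstream, to the nearest H3K27me3 island in each of 8 lists (vertical axis linear up to 10 kb and logarithmic above), with DMSO in blue, GSK126 in orange, spike-in lists as filled circles and standard lists as open triangles, with replicate 1 to the left of replicate 2. The distance is 0 for SPRED3 in 3 DMSO lists and above 50 kb for the other 8 genes in every list.

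In the spike-in lists, the nearest island was farther away with GSK126 than with DMSO in both replicates for 9 of 9 members (71.8% of all genes) and nearer in both for none (0.353%). For SPRY2 the distance was 1664 kb and 1727 kb with DMSO and 8468 kb and 7406 kb with GSK126. For SPRY4 it was 104 kb with DMSO in both replicates, and 555 kb and 560 kb with GSK126. In the standard lists, 4 of 9 members had a more distant island with GSK126 in both replicates (38.6%), and none had a nearer one in both (5.79%). The share of all genes with a more distant island was high as well, and the spike-in lists with GSK126 had been called on fewer tags.

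SPRED3 was the exception. With DMSO, an H3K27me3 island lay over its 3′ end in 3 of 4 lists. It spanned 3.4 kb in replicate 1 (chr19:38887601-38891000) and 2.6 kb in replicate 2 (chr19:38887601-38890200) in the spike-in lists. These islands covered 2627 bp and 2600 bp of the gene, or 19.95% and 19.7% of the gene and its upstream 2 kb. All of the covered sequence lay in the 3′ UTR of the last of 6 exons, 8264 bp downstream of the canonical start, and no coding sequence was covered.

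At equal tag number, the island was found with DMSO in replicate 2 (chr19:38888601-38891400), where it covered 1627 bp, but not in replicate 1. With GSK126, SPRED3 held no H3K27me3 island in any of the 4 lists, and the nearest island lay 17.2 kb to 23.3 kb away. The 3 islands were weak. Their scores were 47.7, 50.1 and 41.2, which were higher than those of 10.1%, 9.94% and 5.10% of the islands in the same list. SPRED3 is therefore the only member with an H3K27me3 island in both DMSO lists, in the spike-in lists (1 of 9 members, and 27.7% of all genes), and no member had one in both standard lists (25.3%). Likewise, 1 of 9 members had less H3K27me3 coverage with GSK126 in both replicates in the spike-in lists (24.8% of all genes, and 16.2% of those with promoter H3K4me3), and 0 of 9 in the standard lists (14.3% and 9.92%).

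Summed over the 9 genes, H3K27me3 coverage differed by −2614 ± 19.1 bp between GSK126 and DMSO in the spike-in lists (SD, n = 2), and all of it was at SPRED3. The islands themselves spanned 3.4 kb and 2.6 kb, and 773 bp of the former lay past the gene end. The SD of the coverage thus does not measure how well the islands of the replicates matched. In the standard lists the difference in coverage was −814 ± 1150 bp, so that the spread between replicates exceeded it. In cell populations, a mark lost from some cells and a mark reduced in all cells cannot be told apart. Over the 8 H3K27me3 lists, the genes with the covered shares most like those of SPRED3 were CD74, CLEC4A and NPW, at Euclidean distances of 5.69 to 6.39 percentage points.

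**Figure D3:**
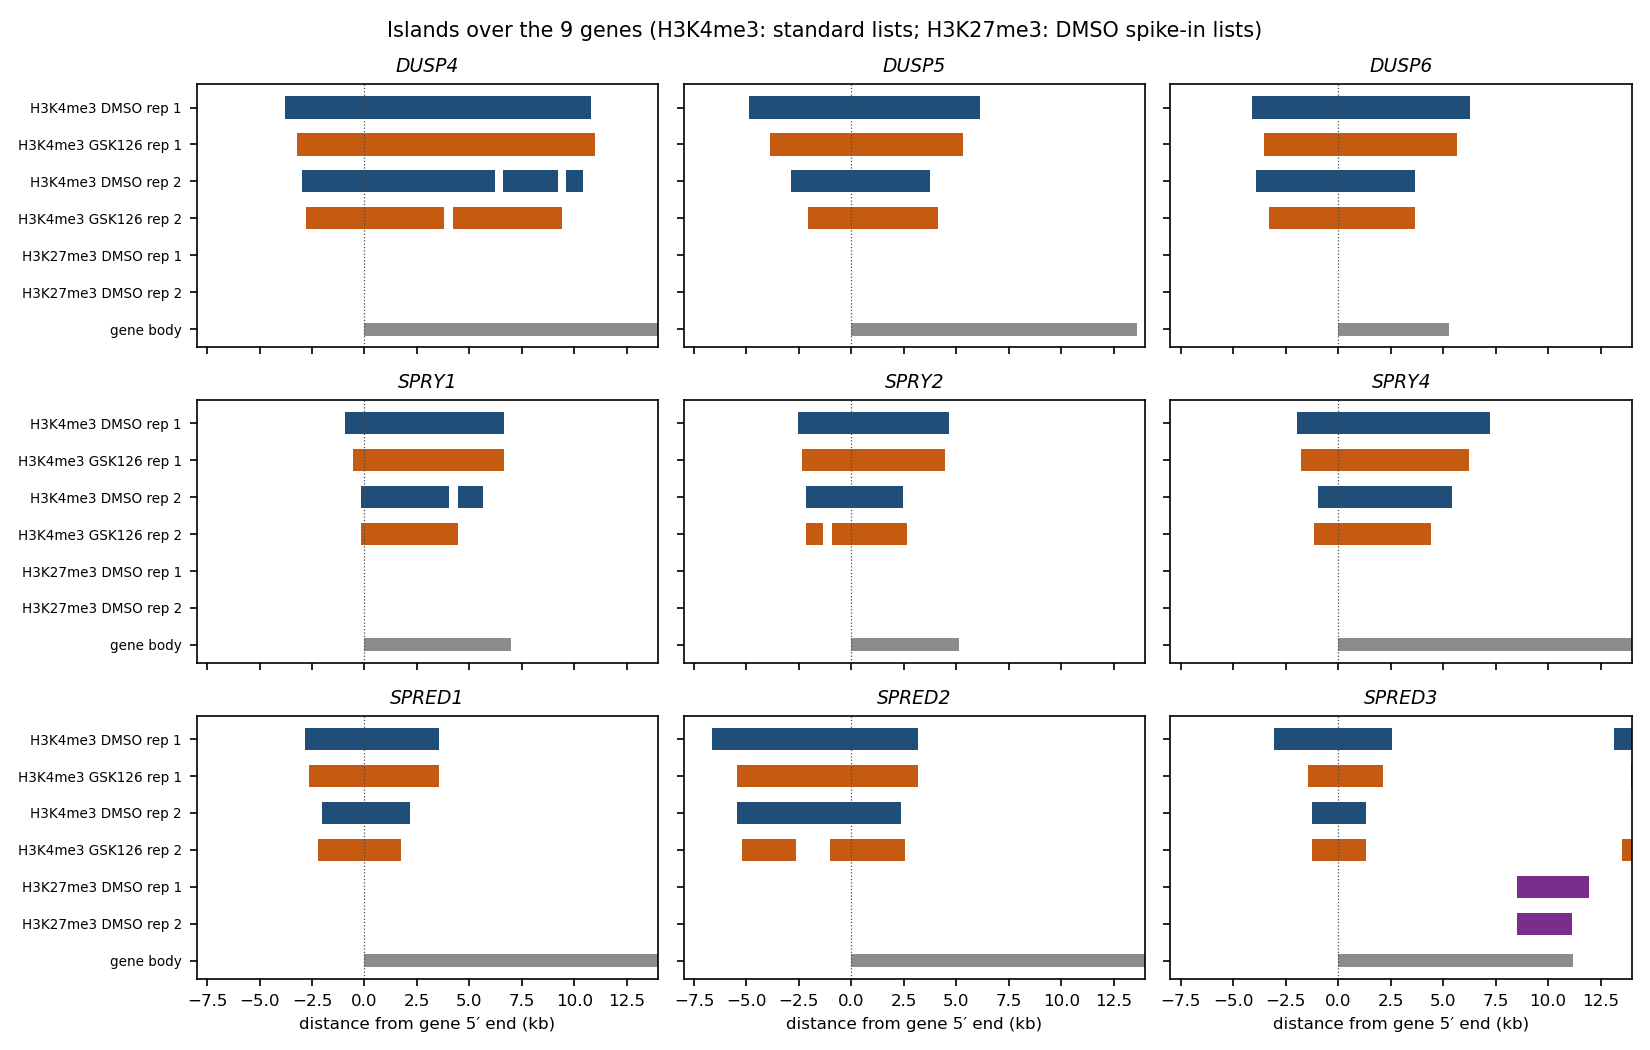
Islands around the 5′ end of each gene, with the distance from the 5′ end in kb along the horizontal axis in the direction of transcription, for H3K4me3 with DMSO (blue) and GSK126 (orange) in the standard lists and for H3K27me3 with DMSO in the spike-in lists (purple), with the gene body in grey, cut at 14 kb. Only SPRED3 shows H3K27me3, over its 3′ end, and the H3K4me3 island of SPRED2 in replicate 2 is one piece with DMSO and 2 pieces with GSK126.

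Elsewhere in the pathway, H3K27me3 islands were found in both DMSO spike-in lists for 2 of 17 core genes and 2 of 12 ERK-induced genes. They were also found for 3 of 7 other MAPK phosphatase genes and 1 of 10 other negative regulators. The share over all genes was 27.7%, and the differences from it were not tested. EGFR held the most. In cells given DMSO, islands covered 30.8 kb of EGFR in replicate 1 and 15.7 kb in replicate 2, whereas with GSK126 they covered 1.2 kb and 0 kb. At equal tag number, however, EGFR coverage was 20.7 kb and 8.6 kb with DMSO and 20.3 kb and 7.4 kb with GSK126. DUSP8, a phosphatase that acts mainly on other MAP kinases, was covered over 12.9 kb and 15.3 kb with DMSO and over 2.8 kb and 11.8 kb with GSK126 in the spike-in lists. At equal tag number DUSP8 coverage was 14.5 kb and 12.5 kb with DMSO and 14.7 kb and 12 kb with GSK126. DUSP9, which inactivates ERK, was covered in the spike-in lists over 10.8 kb with DMSO in both replicates. With GSK126 it was covered over 8.66 kb and 10.8 kb there. At equal tag number DUSP9 coverage was 10.8 kb with DMSO in both replicates, and 10.8 kb and 9.055 kb with GSK126. DUSP2, a nuclear phosphatase, carried a promoter H3K4me3 island as well as H3K27me3, at 3.58 kb with DMSO in both replicates and either kind of list. With GSK126, DUSP2 coverage was 1.38 kb and 3.18 kb in the spike-in lists, and 3.58 kb and 2.98 kb in the standard lists. Islands thus remained over these 3 phosphatase genes with GSK126.

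Coverage at other genes of the pathway was shorter. SOS1, the exchange factor that activates RAS, held 3.6 kb and 6 kb in the spike-in lists of DMSO and none in those of GSK126, whereas in the standard lists it held 0 kb and 5.4 kb with DMSO and 4 kb and 0 kb with GSK126. The immediate early gene EGR1 held 2.2 kb and 2 kb in the former and none in the latter. At equal tag number EGR1 held an island of 4.19 kb with GSK126 in replicate 1 and none in the other 3 lists. For SOS1 and EGR1, the direction at equal tag number differed between replicates or lists. EPHA4, which encodes an ephrin receptor, was covered over 1.8 kb and 4.2 kb in the DMSO spike-in lists and over 0 kb and 3.6 kb in the DMSO standard lists, and no GSK126 list held an island there. The transcription factor gene ETV5 held an island in a single list, of 1.51 kb in the DMSO spike-in list of replicate 2. CBL, a ubiquitin ligase gene, held 2.84 kb and 3.64 kb with DMSO in either kind of list, and with GSK126 it held none in replicate 1 and 1.04 kb (spike-in) or 1.24 kb (standard) in replicate 2. CBL was thus lower with GSK126 in both replicates under both normalizations.

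With GSK126, all 9 members kept a promoter H3K4me3 island in every list, and most of these islands were somewhat narrower. They were narrower than with DMSO in both replicates for 7 of 9 members in the spike-in lists (32.8% of all promoters) and for 7 of 9 in the standard lists (35.2%). No member was wider in both replicates (8.71% and 7.08% of all promoters). Among the promoters of the widest 10% in both DMSO lists, 60.1% were narrower in both replicates in the spike-in lists and 64.4% in the standard lists, and of the 5 members in that class it was 4 and 5.

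The median log2 ratio of GSK126 to DMSO width over members was −0.10 and −0.19 in replicates 1 and 2 in the spike-in lists, compared to −0.07 and −0.13 over all genes. In the standard lists it was −0.18 and −0.12 over members and −0.14 and 0.00 over all genes. As a mean of replicates, the members' median was −0.14 ± 0.07 in the spike-in lists and −0.15 ± 0.04 in the standard lists (SD, n = 2). The difference was thus larger than the spread between replicates. Over the widest 10% of promoters of each replicate with DMSO, the median was −0.18 and −0.28 in the spike-in lists and −0.24 and −0.20 in the standard lists, each lower than that of the members. These promoters were chosen by the DMSO width that enters the ratio.

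DUSP6 was narrower in every comparison. Its island measured 10.4 kb with DMSO in replicate 1, and 9.4 kb (spike-in) and 9.2 kb (standard) with GSK126, and in replicate 2 it measured 7.6 kb with DMSO and 7 kb with GSK126 in both lists. The log2 ratio was −0.13 ± 0.02 in the spike-in lists (SD, n = 2). SPRY4 went from 9.2 kb to 8.6 kb (spike-in) and 8 kb (standard) in replicate 1, and from 6.4 kb to 5.6 kb in both lists of replicate 2. Its log2 ratio was −0.14 ± 0.07 in the spike-in and −0.20 ± 0.01 in the standard lists. DUSP5 went from 11 kb to 9.2 kb and from 6.6 kb to 6.2 kb in either kind of list, or −0.17 ± 0.12. For these 3 genes the difference exceeded the spread between replicates under both normalizations.

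The differences were less even between replicates for SPRY2, SPRED1 and SPRED3. SPRY2 went from 7.2 kb to 7 kb and 6.8 kb in replicate 1 (spike-in and standard), and from 4.6 kb to 3.4 kb and 3.6 kb in replicate 2. SPRED1 went from 6.4 kb to 6 kb and 6.2 kb, and from 4.2 kb to 3 kb and 4 kb. The log2 ratio of SPRED1 was −0.29 ± 0.28 in the spike-in and −0.058 ± 0.017 in the standard lists, which also exceeded the spread between replicates under both normalizations, whereas that of SPRY2 was −0.24 ± 0.28 and −0.22 ± 0.19 and exceeded it in the standard lists only. SPRED3 narrowed in replicate 1, from 5.6 kb to 4 kb and 3.6 kb, but stayed at 2.6 kb in all 3 lists of replicate 2. The mean log2 ratio of SPRED3 was −0.24 ± 0.34 in the spike-in lists, so its narrowing did not exceed the spread between replicates.

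DUSP4 and SPRY1 were the members whose direction depended on the list. In replicate 1, DUSP4 went from 14.6 kb to 15.4 kb (spike-in) or 14.2 kb (standard). In replicate 2, SPRY1 went from 4.2 kb to 3.8 kb (spike-in) or 4.6 kb (standard). In replicate 1, SPRY1 went from 7.6 kb to 7.2 kb in both.

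**Figure D4:**
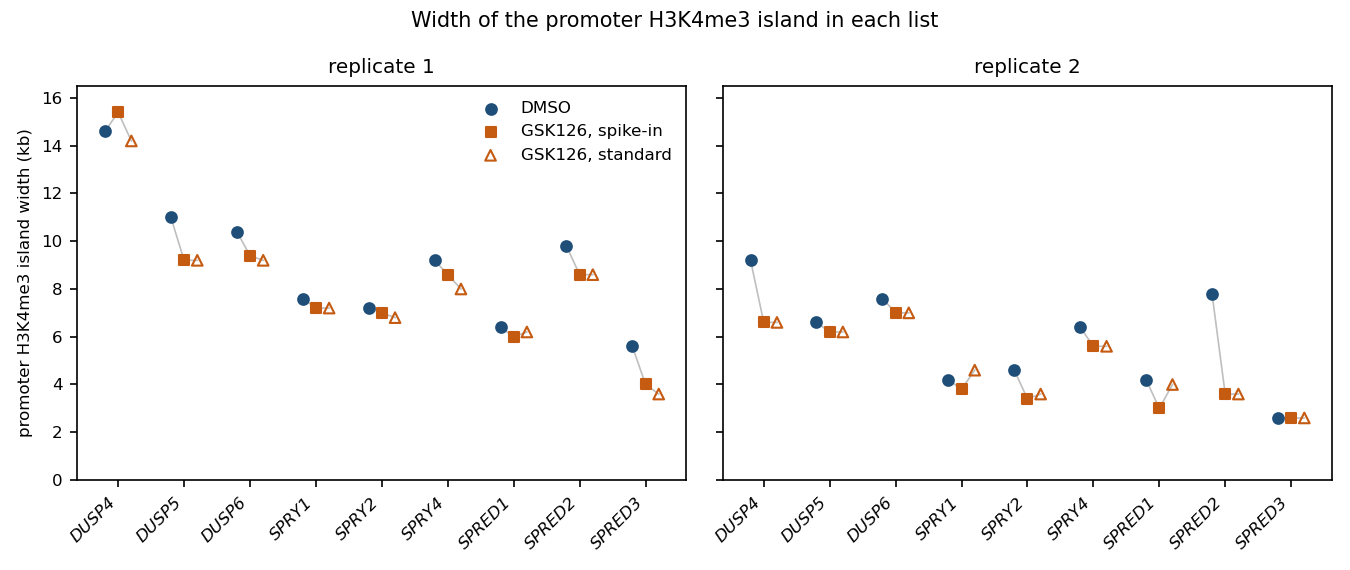
Width of the promoter H3K4me3 island in kb (vertical axis) of each gene in replicates 1 and 2, with DMSO as circles and GSK126 as squares (spike-in list) or open triangles (standard list), and each point a single list. The symbols of GSK126 lie below that of DMSO for most genes, and the largest step is that of SPRED2 in replicate 2, from 7.8 kb to 3.6 kb.

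SPRED2 had the largest change in width, from 9.8 kb to 8.6 kb in replicate 1 and from 7.8 kb to 3.6 kb in replicate 2, in either kind of list. In replicate 2 the island had been divided. Another piece of 2.6 kb lay upstream of it, at −5229 bp to −2630 bp from the 5′ end. The promoter island of DUSP4 in replicate 2 was likewise 1 of 3 pieces with DMSO and 1 of 2 with GSK126 in the standard list, that of SPRY1 was 1 of 2 pieces with DMSO, and that of SPRY2 was 1 of 2 pieces with GSK126. When islands separated by up to 2000 bp were joined, a choice made after these pieces had been seen, SPRED2 measured 7.8 kb with DMSO and with GSK126 in replicate 2. After joining, 5 of 9 members were narrower in both replicates in the spike-in lists (34.7% of all promoters) and 6 of 9 in the standard lists (36.3%), and the members' median log2 ratio was −0.11 ± 0.02 and −0.13 ± 0.06 (SD, n = 2).

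Counted over gene bodies and upstream regions, H3K4me3 islands covered 78540 bp and 51611 bp of the 9 genes with DMSO. With GSK126 they covered 71800 bp and 45676 bp in the spike-in lists, and 69400 bp and 48240 bp in the standard lists. The log2 ratio was −0.15 ± 0.03 and −0.14 ± 0.06, respectively (SD, n = 2). By the mean log2 ratio of the replicates, the change was largest at SPRED2, at −0.38 (spike-in) and −0.44 (standard). In replicate 2 of the spike-in lists, however, SPRY1 (−0.51) and SPRED1 (−0.47) fell further than SPRED2 (−0.28). In the standard lists of replicate 1, SPRED2 coverage was 16771 bp in 5 islands with DMSO and 10971 bp in 4 islands with GSK126. The promoter island covered 5171 bp of SPRED2 and its upstream region with either treatment there, so that the fall lay outside it. The other islands with DMSO lay 34771 bp or more downstream of the 5′ end. Their scores were 75.9 to 164, compared to 9812 for the promoter island. DUSP6 was covered over 7267 bp with either treatment in replicate 1 and over 5678 bp in replicate 2, so that its narrowing took place outside the gene and its upstream 2 kb.

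Island scores, which sum the evidence for enrichment over the windows of an island, can be compared where both lists of a replicate were called on equal tags. In the standard lists, the median log2 ratio of the score over members was 0.04 and −0.34 in replicates 1 and 2, and over all genes it was 0.08 and −0.08. The score of the promoter island was lower with GSK126 in both replicates for 2 of 9 members (23.9% of all promoters) and higher in both for 1 of 9 (28.6%). SPRED2 and SPRED3 were the genes that were lower. SPRED2 went from 9812 to 8224 and from 1811 to 1432, and SPRED3 from 1105 to 1097 and from 308 to 192. SPRED1 was higher, from 4015 to 4361 and from 788 to 827.

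Divided by the number of windows, the score was higher with GSK126 in replicate 1 for 8 of 9 members (78.6% of all promoters) and lower in replicate 2 for 6 of 9 (51.0%). The median log2 ratio of the score per window was 0.22 and −0.06 over members and 0.23 and −0.01 over all genes. DUSP4 and SPRED1 were higher in both replicates (2 of 9 members, and 39.3% of all promoters), and no member was lower in both (11.7%). With DMSO, the score per window of SPRY1, SPRY4, SPRED2 and DUSP6 in replicate 1 lay above 88.1% of promoters or more, whereas that of SPRED3 lay above 11.8%. In replicate 2 these 4 genes lay lower among all promoters, with SPRY1 above 79.8%, SPRY4 above 73.8%, DUSP6 above 69.0% and SPRED2 above 49.4%. SPRED3 again had the lowest score per window of the members in replicate 2 and lay above 16.1% of promoters.

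**Figure D5:**
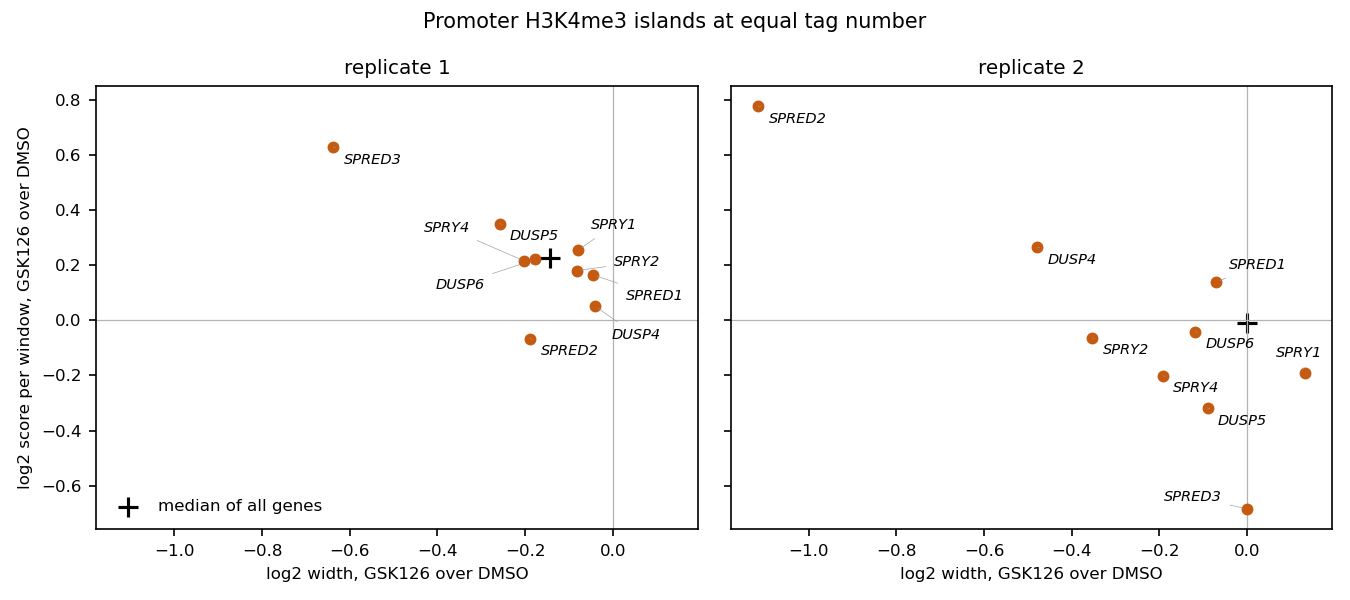
Log2 ratio of GSK126 to DMSO of the score per window (vertical axis) against that of the width (horizontal axis) for the promoter H3K4me3 island of each gene in the standard lists, with a cross at the median of all genes. In replicate 1 most genes lie near the cross at −0.14 and 0.23, with SPRED3 apart, and in replicate 2 SPRED2 and SPRED3 lie farthest from it.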

How the data were processed

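Single-end tags of 50 nt had been mapped by the authors with BWA to the human (hg19, equal to GRCh37) and D. melanogaster (dm3) genomes. They removed duplicates, kept uniquely mapped tags and called islands per library, without pooling, using SICER 1.1 with an E-value of 1 and gaps of 600 bp (H3K27me3) or 200 bp (H3K4me3). The deposited score of an island is SICER's sum of negative log Poisson probabilities over its windows and depends on tag number. SAMtools 0.1.18 is also named in the submitters' processing notes. Samples were grouped by the antibody and treatment in the labels. Replicates were numbered in accession order and paired as in the study's table of tags, and within each pair the standard lists had equal tag density, to within 0.01%.

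Island starts were shifted to 1-based positions. Coverage, overlap (at least 1 bp), promoter islands and distances came from scripts in Python 3.11.15 with NumPy 2.4.6, tag densities from SciPy 1.17.1, and plots from Matplotlib 3.10.9. Genes were those of GENCODE 44 mapped to GRCh37, and sequence was read from the GRCh37 genome. The functions were tested on simulated data (2000 regions, 0 wrong). The 9 genes and all gene lists were chosen with earlier results of these data known. All 9 genes were named, and from each list at most 4 genes with the largest mean H3K27me3 difference in the spike-in lists, with ties, including differences of 0, broken by symbol. Alternatives were a stricter score threshold, other regions and overlaps, longer islands, leaving out a replicate, no pairing and joined islands. Lists hold no counts per window, so no interval was computed. KARPAS-422 data were not analysed here, and 1 marker gene is not reported here.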

Additional observations from a re-analysis of the deposited data

How the results depend on the processing

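Of 78 alternative values of the counts, covered lengths and median ratios over the 9 genes, 66 stayed within set limits. They did not turn direction and moved by no more than the spread between replicates (counts by no more than 1.5 times). A fall to 0 within that spread also passed. One such case was H3K27me3 coverage in the standard lists, which went from −814 bp to 0 bp with the stricter threshold. With a score of at least 2 times the lowest of each list, and likewise within 5000 bp of the 5′ end only, no H3K27me3 remained over any member in the spike-in lists, so that the difference in covered length was 0 bp and the counts of members with an island in both DMSO lists and with lower coverage were 0. With the GSK126 spike-in lists set against the DMSO standard lists, the difference was −814 bp and the count of lower members was 0. In the standard lists, without replicate 1, 1 member had an H3K27me3 island with DMSO and lower coverage with GSK126, and without replicate 2 it was 0; the difference in covered length ranged from −1627 bp to 0 bp, and in the spike-in lists from −2627 bp to −2600 bp. All of these values rest on SPRED3. The 9 of 9 promoter H3K4me3 islands were found under every alternative tried.

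Leaving out a replicate gave a median log2 width ratio of −0.19 to −0.10 (spike-in) and −0.18 to −0.12 (standard), a log2 ratio of H3K4me3 coverage of −0.18 to −0.13 and −0.18 to −0.10, and a median log2 score ratio of −0.34 to 0.044, so that the score has no direction common to both replicates. With no replicate block, the median width ratio in the standard lists was −0.19, and no other value moved by more than its spread. Of 108 values for single genes, 103 were within these limits and 3 turned direction. Without replicate 2, the log2 width ratio of DUSP4 in the spike-in lists was 0.077 (−0.48 without replicate 1) and that of SPRY1 in the standard lists was −0.078 (0.13 without replicate 1), and with islands joined across 2000 bp, an alternative chosen after seeing the data, that of SPRY1 was −0.21. The H3K4me3 tag density was 0.302 per window in replicate 2, and its part in the narrower islands of that replicate was not tested.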

Other observations

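Among the marker genes used to check the cell type, the keratin gene KRT19 had a promoter H3K4me3 island of 14.4 kb and 6.6 kb with DMSO in replicates 1 and 2, and thus lay close to DUSP4 in replicate 1 and to DUSP5 in replicate 2. With GSK126 the island of KRT19 measured 15.8 kb and 7 kb in the spike-in lists. The epithelial cadherin gene CDH1 had an island of 11.6 kb with DMSO in replicate 1 but 2.2 kb in replicate 2. In the spike-in lists with GSK126, it measured 4.4 kb and 2.2 kb. With DMSO, the width of the CDH1 island therefore differed between replicates by a larger factor than that of any member.

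NAPSA, the gene of an aspartic protease of lung epithelium, held no promoter H3K4me3 island and was covered by 5.67 kb of H3K27me3 with DMSO in both replicates. In the spike-in lists with GSK126 it held none, and at equal tag number it held 5.47 kb and 4.67 kb. NKX2-1, a transcription factor of lung epithelium, carried both marks with DMSO, with 3.55 kb and 5.95 kb of H3K27me3 in the spike-in lists and promoter H3K4me3 islands of 3.8 kb and 2.6 kb. With GSK126, NKX2-1 kept H3K4me3 islands of 3.4 kb and 2.2 kb and held no H3K27me3 in the spike-in lists. In the standard lists, H3K27me3 covered 6.55 kb and 2.55 kb of NKX2-1 with DMSO, and 5.35 kb and 0 kb with GSK126. Its H3K27me3 coverage was thus lower with GSK126 in both replicates under both normalizations.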
